A study of Homo sapiens with 6 samples.

Results

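Ribosome biogenesis and nucleolar factors were examined as 50 named genes in LoVo, a human colorectal adenocarcinoma cell line, with and without DCC-2036, a tyrosine kinase inhibitor also known as rebastinib. The genes were chosen by name, as factors that transcribe, modify, cut and assemble ribosomal RNA, and all 50 were present among the 19223 gene symbols of the RNA-seq table. The table holds 3 Control libraries, from LoVo cells given vehicle, and 3 DCC-2036 libraries, from LoVo cells given 2.5 μM of the compound. The sample labels give 48 h of treatment for both groups, the paper's legend gives a shorter time, and no mutation or transgene separates the groups. All libraries come from total RNA of 1 cell line, and nothing says whether replicates of a group were separate cultures beyond their numbers, so p-values measure the spread between these samples, which may be technical.

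Ribosomes are built mainly in the nucleolus. RNA polymerase I transcribes a long precursor of ribosomal RNA, small nucleolar RNA-protein particles (snoRNPs) guide its methylation and pseudouridylation, and a large assembly called the small subunit (SSU) processome folds and cuts the part that becomes the small subunit. Separate sets of factors then build the large subunit and complete the small one, and rapidly growing tumour cells are known for high demand on this pathway.

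Values are the authors' adjusted signal per transcript, which is not a read count, so the depth behind each value is unknown. Each gene is represented by its most abundant transcript, and log2 changes are DCC-2036 minus Control on the log2(value + 1) scale, tested with limma over 12725 genes and called at an adjusted p under 0.01. All 50 members passed the filter of at least 10 in at least 3 libraries. The epithelial markers EPCAM, CDH1, CDX2, KRT8 and KRT18 were above 100 in every library, while VIL1, LGALS4, CEACAM5 and CDH17, which also mark colon epithelium, did not exceed 7.23 in any. KRT20 lay between 17.7 and 64.1, with every DCC-2036 library below every Control library. EPCAM, CDH1, KRT8 and KRT18 were higher in every DCC-2036 library than in any Control library. The pan-leukocyte gene PTPRC was listed at 0 in all 6 libraries. Of the other leukocyte, fibroblast and endothelial markers, CD68 lay between 205 and 280 and COL1A1 between 353 and 520.

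Members were called in both directions with DCC-2036. Of the 50 members, 12 were called higher, which is 24.0% against 19.2% of all genes tested, and 11 were called lower, which is 22.0% against 22.7% of all genes. The other 27 were not called. Both shares lie close to those of the whole table, and in bulk RNA a changed mix of cells cannot be told apart from a changed amount of RNA per cell. Groups did not overlap upward in 18 members (36.0%, against 32.9% of all genes) and downward in 17 members (34.0%, against 38.1%), and they overlapped in 15. The median log2 change of the members was -0.05, and that of all genes tested -0.09. Without regard to sign the median was 0.63 for the members and 0.60 for all genes. For each of the 24 members with more than 1 listed transcript, the sign of change was the same in all of them.

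These counts depend on which libraries are used. Without Control replicate 1, 2 or 3 the members called higher numbered 3, 2 and 2, and those called lower 7, 6 and 6. Without DCC-2036 replicate 2 they were 3 and 6, without DCC-2036 replicate 1 they were 15 and 15, and without DCC-2036 replicate 3 they were 12 and 12. Calls over all genes moved alike: without a Control library 7.9% to 8.4% of genes tested were called higher and 12.1% to 12.7% lower, without DCC-2036 replicate 2 they were 7.4% and 13.6%, without replicate 1 they were 21.3% and 28.0%, and without replicate 3 they were 19.8% and 25.9%. Calls that held whichever library was left out numbered 7: UTP3, NOL6, RRP9, RRS1, GNL3 and PPAN, all lower, and NOP2, higher. The other 16 called members lost the call without at least 1 Control library or without DCC-2036 replicate 2, with adjusted p-values of up to 0.035 (NOP58), and none changed direction. DCC-2036 replicate 3 was the library farthest from the Control mean for 33 of the 50 members (66.0%) and for 60.4% of all genes tested.

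**Figure D1:**
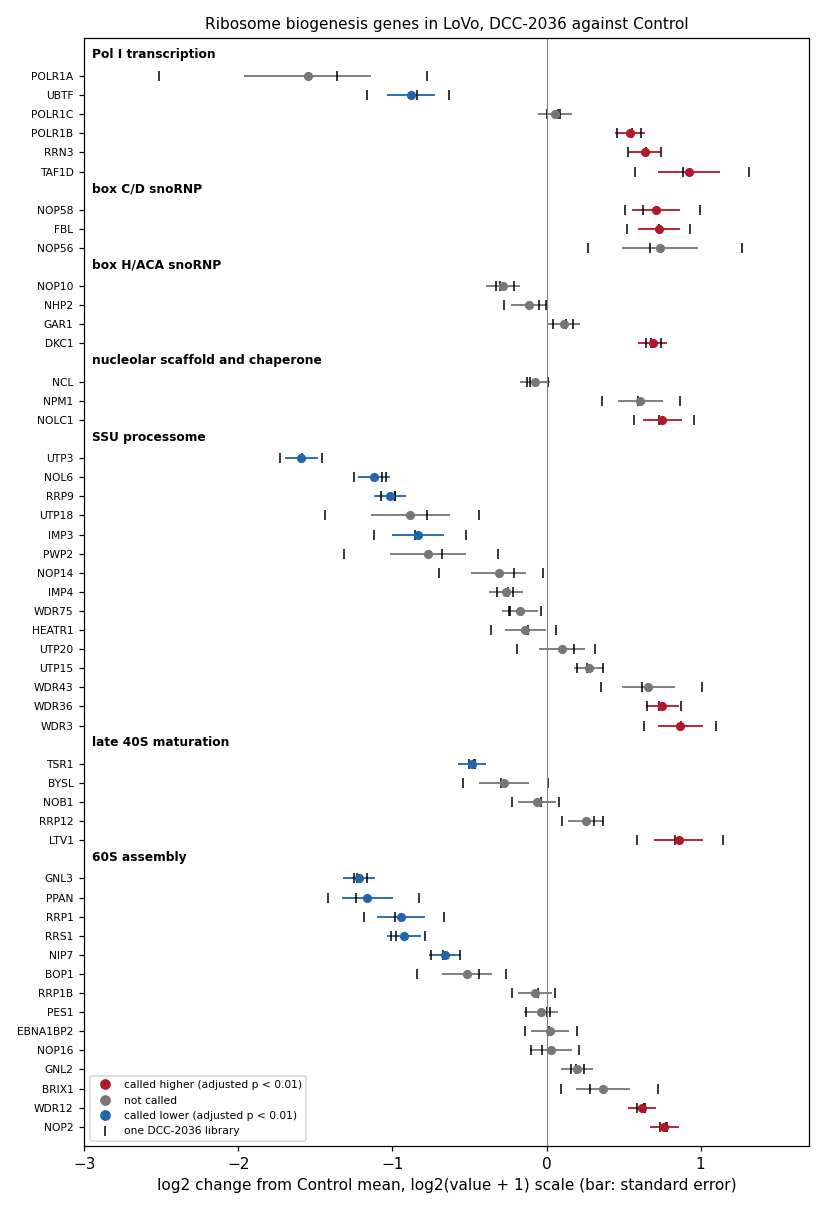
Log2 change of each of the 50 genes with DCC-2036, grouped by role (horizontal axis, log2(value + 1) scale; large points are the group difference, bars its standard error, ticks the 3 DCC-2036 libraries against the Control mean). The box C/D group lies wholly to the right of 0, from 0.71 to 0.74, while the SSU processome spans -1.59 to 0.87.

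The 250 bases before the start that RefSeq gives (GRCh38.p14) were available for 44 members. NOL6, PPAN and LTV1 are shown because they moved in opposite directions and because their windows hold at most 6 bases that GENCODE 29 places in an exon. NOL6 (chr9:33473925-33474174, minus strand) and PPAN (chr19:10105973-10106222, plus strand) fell, and LTV1 (chr6:143843088-143843337, plus strand) rose. Capitals mark the GC box, GGGCGG or its reverse complement CCGCCC, the core of the motif bound by the general activator SP1.
NOL6: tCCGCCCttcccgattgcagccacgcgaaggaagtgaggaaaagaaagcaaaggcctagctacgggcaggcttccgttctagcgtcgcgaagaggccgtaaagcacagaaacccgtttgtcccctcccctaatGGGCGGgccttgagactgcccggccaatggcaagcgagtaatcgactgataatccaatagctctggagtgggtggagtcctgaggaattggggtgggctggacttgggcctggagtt
PPAN: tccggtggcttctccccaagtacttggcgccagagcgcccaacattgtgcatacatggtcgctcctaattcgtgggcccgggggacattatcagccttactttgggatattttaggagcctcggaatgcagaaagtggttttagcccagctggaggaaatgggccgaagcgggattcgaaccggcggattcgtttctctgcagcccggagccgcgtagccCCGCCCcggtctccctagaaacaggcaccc
LTV1: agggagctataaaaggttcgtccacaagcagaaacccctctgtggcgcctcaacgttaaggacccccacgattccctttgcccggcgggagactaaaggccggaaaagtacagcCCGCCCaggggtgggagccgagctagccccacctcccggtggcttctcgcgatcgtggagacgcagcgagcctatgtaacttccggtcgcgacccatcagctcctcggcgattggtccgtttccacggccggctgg
The NOL6 window holds 2 such motifs, and those of PPAN and LTV1 hold 1 each. Read on both strands, GGGCGG was present in 32 of 44 member windows (72.7%) and in 68.5% of 9917 genes tested that have a window. Of the 44 windows, 14 lie wholly within exons of GENCODE 29, TAF1D, NOP2 and POLR1A among them, so these counts are not of promoter sequence alone. In the 30 other windows GGGCGG was present in 24. By call it was in 6 of 10 windows of members called higher, in 7 of 10 of members called lower and in 19 of 24 of members not called. The E-box CACGTG, the preferred core of MYC and related factors, reads the same on both strands. It occurred in 5 member windows (11.4%), against 8.91% of the 9917 genes tested that have a window. By call it was in 0 of 10 windows of members called higher, 0 of 10 of members called lower and 5 of 24 (20.8%) of members not called.

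Of 6 genes of RNA polymerase I transcription, 3 were called higher and 1 lower, against 19.2% and 22.7% of all genes. With limma the counts fell to 0 and 0 without any 1 of Control replicates 1, 2 and 3 or without DCC-2036 replicate 2 (3 higher and 2 lower at an unadjusted p under 0.05 each time), and to 1 and 1 with libraries scaled to equal totals. POLR1A (chr2:86020216-86106155), the largest subunit, which forms much of the catalytic centre, stood at 3262, 3163 and 3359 in the Control libraries and at 1901, 1272 and 571 with DCC-2036. Every DCC-2036 library was below every Control library, but they spread widely among themselves and the change of -1.55 (SE 0.41) had an adjusted p of 0.017, above the limit. It passed the limit without DCC-2036 replicate 1 (-1.94, adjusted p = 0.0033) and without DCC-2036 replicate 3 (-1.07, adjusted p = 0.0033), and with a mean-variance trend in limma (adjusted p = 0.0049). POLR1B (chr2:112541915-112577150), the second largest subunit, went the other way, from 2066, 2015 and 2063 to 2807, 3009 and 3137, a change of 0.54 (SE 0.10, adjusted p = 0.0036). The groups did not overlap, and the call was lost with equal totals (0.34, adjusted p = 0.014). POLR1C, a subunit shared with RNA polymerase III, overlapped between groups, at 910, 1093 and 988 against 1057, 996 and 1046.

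Factors that bring the polymerase to ribosomal DNA also diverged. UBTF, the upstream binding factor that coats active ribosomal DNA, read 2683, 2717 and 2991 in Control and 1804, 1562 and 1247 with DCC-2036, a fall of 0.88 on the log2 scale (SE 0.16, adjusted p = 0.0036). TAF1D, a subunit of the promoter selectivity factor SL1, had the highest log2 change of the 50 members at 0.92 (SE 0.20, adjusted p = 0.0081), from 624, 554 and 504 to 832, 1033 and 1387, and lost its call with equal totals (0.73, adjusted p = 0.015), with no filter on low values (adjusted p = 0.018) and with transcripts summed (adjusted p = 0.0101). RRN3, which links the polymerase to SL1, rose by 0.64 (SE 0.10, adjusted p = 0.0025), from 2487, 2604 and 2566 to 3686, 3991 and 4264. None of these 3 genes had overlapping groups. Among 9 other genes of RNA polymerase I and its promoter and termination factors, limma called 0 higher, against 19.2% of all genes. It called 3 lower. At an unadjusted limma p under 0.05, 2 were higher and 6 lower. The 3 called lower were POLR1E at -1.50 and ZNRD1 at -1.44, both polymerase subunits, and TAF1C, another SL1 subunit, at -0.70. The lower share was 33.3%, against 22.7% of all genes. It was 5 of 9 without DCC-2036 replicate 1 or with equal totals, and 2 of 9 without any 1 Control library or DCC-2036 replicate 2. TWISTNB, a further polymerase subunit, went the other way, from 872, 957 and 858 to 1350, 1944 and 3156 (1.18, SE 0.30), without overlap but not called (adjusted p = 0.014). Those 4 were named after their values were seen.

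**Figure D2:**
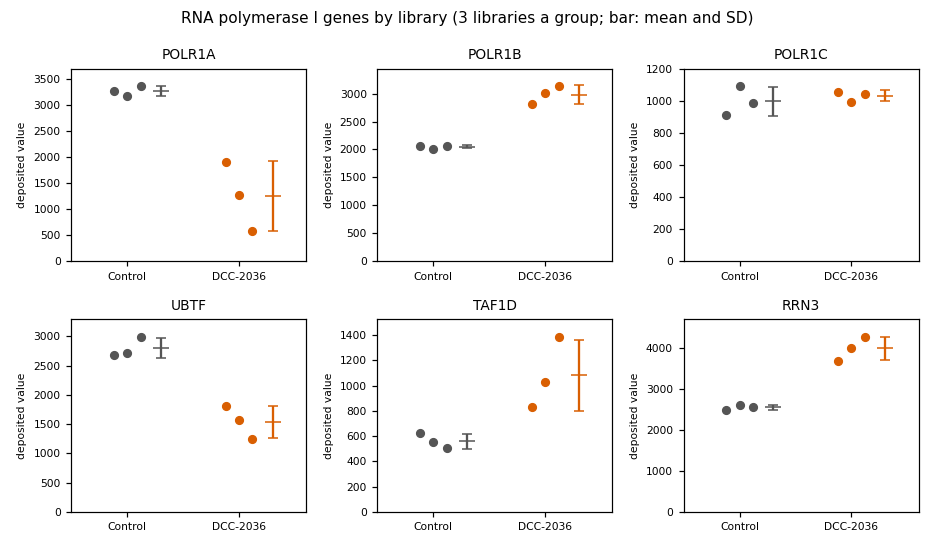
Deposited value of 6 genes of RNA polymerase I transcription in each of the 6 libraries (vertical axes start at 0; points are libraries, bars the mean and SD of 3). POLR1A and UBTF lie lower in all DCC-2036 libraries, POLR1B, TAF1D and RRN3 lie higher, and POLR1C overlaps.

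The box C/D snoRNP, which methylates ribosomal RNA, had all 3 members higher without overlap, as 32.9% of all genes were, and 2 of them called, against 19.2% of all genes. These 2 calls were lost without any 1 of the Control libraries or without DCC-2036 replicate 2, and also with no filter on low values (FBL adjusted p = 0.0109, NOP58 adjusted p = 0.018). FBL (chr19:39834458-39846414), the methyltransferase fibrillarin, read 4944, 5495 and 5612 in Control and 7658, 8879 and 10178 with DCC-2036, a change of 0.73 (SE 0.14, adjusted p = 0.0044). NOP58, a core protein of the particle, rose by 0.71 (SE 0.16, adjusted p = 0.0084), from 2603, 2778 and 2332 to 3644, 3958 and 5116, and lost its call with equal totals (0.51, adjusted p = 0.019) and with transcripts summed (adjusted p = 0.0101). NOP56, its partner core protein, had the highest change of the 3 at 0.74 but was not called (SE 0.25, adjusted p = 0.039). Its DCC-2036 values of 6408, 8472 and 12803 were all above the Control values of 4940, 5521 and 5492. The NOP56 change was 0.97 without DCC-2036 replicate 1 (adjusted p = 0.0061) and 0.47 without DCC-2036 replicate 3 (adjusted p = 0.030), and the adjusted p was up to 0.11 with 1 library left out.

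The box H/ACA snoRNP, which makes pseudouridines, had its enzyme called higher and none of its partners called. DKC1 (chrX:154762742-154777689), the pseudouridine synthase dyskerin, stood at 2908, 3014 and 3104 in Control and at 4713, 4807 and 5023 with DCC-2036. The change was 0.69 (SE 0.09, adjusted p = 0.0014), and the replicates within each group lay close together. Of the 3 small proteins that bind the enzyme limma called 0, against 19.2% of all genes called higher and 22.7% called lower. At an unadjusted limma p under 0.05, 1 of them was lower. GAR1 read 919, 887 and 1015 against 965, 1023 and 1058 (0.11, SE 0.10, adjusted p = 0.37). NHP2 read 2463, 2668 and 2886 against 2199, 2580 and 2657 (-0.11, SE 0.12, adjusted p = 0.45). The groups overlapped in both. NOP10 read 956, 1127 and 1122 against 848, 865 and 918, lower in every DCC-2036 library, with a change of -0.28 (SE 0.11, adjusted p = 0.063), and it was called lower with equal totals (-0.48, adjusted p = 0.0070).

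Nucleolar scaffold and chaperone proteins included the most abundant members. Per kilobase of transcript, NPM1 (nucleophosmin) had a Control mean of 17381 and NCL (nucleolin) of 8770, against 166 for WDR12, the lowest of the 48 members with a known length. Whether the deposited values already allow for length is not stated, so this order may rest on the division. Undivided, the Control mean was 30556 for NPM1 and 35376 for NCL. NOLC1, a phosphoprotein that accompanies snoRNPs, was the only one of the 3 called (33.3% higher, against 19.2% of all genes). Its change was 0.75 (SE 0.13, adjusted p = 0.0031), from 6987, 7050 and 7447 to 10620, 11858 and 13906. NPM1 values were 29473, 31968 and 30227 in Control and 39268, 46065 and 55783 with DCC-2036, without overlap, and its change of 0.61 (SE 0.15) had an adjusted p of 0.012. It passed the limit without DCC-2036 replicate 1 (0.73, adjusted p = 0.0035), with upper quartile scaling (0.72, adjusted p = 0.0073), with at least 10 required in all libraries (adjusted p = 0.0092) and with a mean-variance trend (adjusted p = 0.0029). NCL overlapped between groups, at 34377, 36422 and 35330 against 32379, 32765 and 35661, a change of -0.08 (SE 0.10, adjusted p = 0.52). Summed over the 50 members, the signal made up 1.12%, 1.16% and 1.12% of each Control library's signal over 1 transcript per symbol, and 1.11%, 1.11% and 1.16% of that of each library with DCC-2036. NPM1 and NCL carry much of that sum. Without them the shares were 0.731%, 0.746% and 0.739% in Control and 0.715%, 0.696% and 0.705% with DCC-2036, each below every Control share. In deposited values the same sum was higher in every DCC-2036 library, at 128351, 133028 and 141445 against 119410, 124799 and 125414. So was the signal over 1 transcript per symbol, by which the shares divide, at 17959762, 19112188 and 20078388 against 16342648, 16730230 and 16982729.

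The SSU processome, with 15 members, held both the lowest change of all and some of the highest. Of the 15, 2 were called higher (13.3%) and 4 lower (26.7%), shares not far from those of all genes, and their median was -0.26, which was -0.13 without DCC-2036 replicate 3 and -0.46 with equal totals. Called higher were 0 without Control replicate 3, 1 without Control replicate 1, Control replicate 2 or DCC-2036 replicate 2, and 2 or 3 without the others, and called lower 3 to 6. UTP3 (chr4:70688479-70690551), whose yeast counterpart Sas10 is a processome protein, stood at 1033, 1040 and 1017 in Control and at 342, 310 and 375 with DCC-2036. That is 33.2% of the Control mean, a change of -1.59 (SE 0.11, adjusted p = 0.00023), with both groups tight. NOL6 (chr9:33461441-33473930), a nucleolar RNA-associated protein whose upstream window is given above, fell to 46.0% of its Control mean, from 1745, 1806 and 1798 to 864, 748 and 851 (-1.12, SE 0.10, adjusted p = 0.00045). RRP9 (chr3:51933430-51941941), a protein of the U3 snoRNP, fell to 49.4%, from 1912, 2108 and 2215 to 1047, 1049 and 984 (-1.01, SE 0.10, adjusted p = 0.00061). Replicates of these genes differed by far less than the groups did.

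IMP3, which joins U3 to the precursor RNA, was the other SSU processome gene called lower, at 1609, 1412 and 1460 against 685, 825 and 1038 (-0.83, SE 0.17, adjusted p = 0.0060). It lost the call with median of ratios (-0.75, adjusted p = 0.012), upper quartile (-0.72, adjusted p = 0.012) and no filter on low values (adjusted p = 0.014). Its partner IMP4 was lower in every DCC-2036 library, at 1949, 2089 and 2045 against 2211, 2459 and 2653, but was not called (-0.26, SE 0.11, adjusted p = 0.073), except with equal totals (-0.46, adjusted p = 0.0081). In the opposite direction, WDR3 (chr1:117929720-117966542), a subunit of the UTP-B complex, rose by 0.87 (SE 0.14, adjusted p = 0.0029), from 2419, 2730 and 2553 to 3972, 4701 and 5505. WDR36, another UTP-B subunit, rose by 0.75 (SE 0.10, adjusted p = 0.0016), from 1639, 1618 and 1523 to 2499, 2645 and 2920. UTP18 and PWP2, of the same complex, were lower in every DCC-2036 library but were not called. UTP18 read 2569, 2263 and 2161 against 1713, 1360 and 859 (-0.88, adjusted p = 0.022). PWP2 read 3087, 3315 and 3432 against 2629, 2042 and 1318 (-0.77, adjusted p = 0.033). Without DCC-2036 replicate 1 both passed the limit, UTP18 at -1.10 (adjusted p = 0.0056) and PWP2 at -0.997 (adjusted p = 0.0063), and UTP18 also did with a mean-variance trend (adjusted p = 0.0074). Without DCC-2036 replicate 3 they were -0.61 and -0.50, and with the length and GC trend removed PWP2 was -0.43 (adjusted p = 0.099).

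The UTP-A complex, which binds the precursor early, was represented by WDR43, UTP15, WDR75 and HEATR1. Of these 4 limma called 0, against 19.2% of all genes called higher and 22.7% called lower. At an unadjusted limma p under 0.05, 2 were higher. WDR43 was higher in every DCC-2036 library, at 4193, 5025 and 6598 against 3245, 3388 and 3196 (0.66, adjusted p = 0.017), and passed without DCC-2036 replicate 1 (0.81, adjusted p = 0.0040) and with a mean-variance trend (adjusted p = 0.0047). UTP15 was also without overlap at 0.28 (adjusted p = 0.045), but was 0.08 with equal totals (adjusted p = 0.49). WDR75 (-0.17), HEATR1 (-0.14), UTP20 (0.10) and NOP14 (-0.31), the last pair being processome proteins outside this complex, had overlapping groups. With 1 library left out WDR75 ranged from -0.24 to -0.104, HEATR1 from -0.238 to -0.027 and NOP14 from -0.455 to -0.119. Subunits outside the 50, named after their values were seen, belong to the same complexes. In UTP-A, UTP4 was called higher (0.76, SE 0.11, adjusted p = 0.0019) and NOL11 overlapped between groups (-0.09). In UTP-B, TBL3 was called lower (-1.51, SE 0.10, adjusted p = 0.00021) and UTP6 overlapped (-0.21).

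Among 5 factors of late small subunit maturation, 1 rose and 1 fell (1 of 5 each, against 19.2% and 22.7% of all genes), and both calls were lost without any 1 Control library, without DCC-2036 replicate 2 and with no filter on low values (adjusted p = 0.0111 for each). LTV1 (chr6:143843344-143863812), which helps to release and export the small subunit, stood at 1460, 1442 and 1284 in Control and at 2097, 2488 and 3081 with DCC-2036, with a change of 0.86 (SE 0.16, adjusted p = 0.0045). TSR1, a GTPase-like factor that guards the immature subunit, read 4486, 4734 and 4658 against 3260, 3345 and 3333, a change of -0.48 (SE 0.09, adjusted p = 0.0045), small but beyond the narrow spread of its replicates. The TSR1 call was lost when libraries were scaled by median of ratios (-0.4, adjusted p = 0.012) and by upper quartile (-0.37, adjusted p = 0.012). RRP12, an export factor, was higher without overlap at 0.26 (adjusted p = 0.094), but was 0.06 with equal totals (adjusted p = 0.70). BYSL, which stays with the subunit until late in its assembly, at -0.28, and NOB1, the endonuclease of the last cut, at -0.06, had overlapping groups. BYSL ranged from -0.418 to -0.141 with 1 library left out, and was -0.033 with the length and GC trend removed.

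Large subunit assembly, with 14 members, had 2 called higher (14.3%, against 19.2% of all genes) and 5 called lower (35.7%, against 22.7%). With 1 library left out the counts ran from 1 to 2 higher and from 3 to 6 lower, and were 1 and 3 without Control replicate 2, Control replicate 3 or DCC-2036 replicate 2, and 1 and 4 without Control replicate 1. GNL3 (chr3:52681156-52694492), the nucleolar GTPase nucleostemin, fell to 42.9% of its Control mean, from 1987, 2179 and 1869 to 893, 854 and 842 (-1.22, SE 0.10, adjusted p = 0.00037). PPAN (chr19:10106289-10111634), the counterpart of yeast Ssf1, fell to 45.3%, from 1889, 2040 and 2045 to 743, 842 and 1120 (-1.16, SE 0.17, adjusted p = 0.0017). PPAN shares exons on its strand with the readthrough gene PPAN-P2RY11, so reads of the pair could be split between them. RRS1, which brings the 5S RNP into the particle, fell to 52.7%, from 1739, 1577 and 1667 to 960, 842 and 823 (-0.93, SE 0.11, adjusted p = 0.00090). RRP1 fell from 1444, 1594 and 1695 to 993, 797 and 693 (-0.94, SE 0.16, adjusted p = 0.0029), and NIP7, a factor of precursor processing, from 1649, 1795 and 1821 to 1040, 1099 and 1190 (-0.66, SE 0.10, adjusted p = 0.0024). Across the alternatives run, the RRP1 change ranged from -1.14 to -0.57. In each of these 5 genes the highest DCC-2036 value lay below the lowest Control value.

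The members of large subunit assembly called higher were NOP2 and WDR12. NOP2 (chr12:6556863-6568691), a ribosomal RNA methyltransferase, stood at 2981, 3192 and 3230 in Control and at 5380, 5365 and 5223 with DCC-2036, 170% of the Control mean (0.76, SE 0.09, adjusted p = 0.0010). WDR12 rose by 0.62 (SE 0.09, adjusted p = 0.0019), from 1338, 1384 and 1315 to 2089, 2094 and 2017, and lost its call with equal totals (0.42, adjusted p = 0.011). WDR12 forms the PeBoW complex with PES1 and BOP1, and neither of these was called. PES1 overlapped between groups, at 4786, 5310 and 5621 against 5305, 5238 and 4763 (-0.04, adjusted p = 0.78). BOP1 was lower in every DCC-2036 library, at 5204, 5013 and 5333 against 4324, 3818 and 2896 (-0.51, adjusted p = 0.031), and passed without DCC-2036 replicate 1 at an adjusted p of 0.00997. Without DCC-2036 replicate 3 BOP1 was -0.35 (adjusted p = 0.024), and with the length and GC trend removed -0.23 (adjusted p = 0.22). The GTPase GNL2 was higher without overlap, at 2608, 2518 and 2462 against 2207, 2374 and 2050, but was not called (0.20, adjusted p = 0.13). RRP1B, a paralogue of RRP1, read 3640, 3504 and 3507 in Control and 3687, 3410 and 3040 with DCC-2036 (-0.08, adjusted p = 0.57). NOP16 (0.03), EBNA1BP2 (0.02), RRP1B and BRIX1 (0.37) overlapped between groups and were not called. With 1 library left out BRIX1 ranged from 0.189 to 0.502.

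Ratios of partner genes within a library do not depend on how libraries were scaled, and 14 such ratios were compared between groups. Several share DKC1, POLR1B, PES1 or NOP56, and each restates the log2 changes of its genes, so they are not separate observations. In 12 of the 14 the 3 DCC-2036 libraries lay wholly apart from the 3 Control libraries. Each of these 12 had p = 0.1 by a two-sided exact permutation test, the smallest that 20 assignments allow. Their adjusted p over the 14 was 0.117. Over all pairs of the 12725 genes tested, 68.8% of such ratios lay apart in either direction. This test cannot reach 0.05 with 3 libraries a group. The log2 ratio of POLR1A to POLR1B was 0.66, 0.65 and 0.70 in Control and -0.56, -1.24 and -2.46 with DCC-2036, a difference of -2.09 and the widest of the 14. GNL3 over GNL2, related nucleolar GTPases, moved from -0.15, -0.12 and -0.13 to -1.55, -1.56 and -1.55. The difference was -1.41, and leaving out any 1 library kept it between -1.42 and -1.41.

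Enzyme and partners of the H/ACA particle separated, with NOP10 over DKC1 lower by -0.97, NHP2 over DKC1 by -0.80 and GAR1 over DKC1 by -0.58. Within PeBoW, WDR12 over PES1 was higher by 0.66 and BOP1 over PES1 was lower by -0.48, from 0.12, -0.08 and -0.08 to -0.30, -0.46 and -0.72. The paralogues RRP1B and RRP1 parted by 0.87, with RRP1B over RRP1 at 1.33, 1.14 and 1.05 in Control and 1.89, 2.10 and 2.13 with DCC-2036. NCL over NPM1 was lower by -0.68, IMP3 over IMP4 by -0.57 and POLR1C over POLR1B by -0.49. RRN3 kept nearest to POLR1B among the 12, with a difference of 0.10. Ratios within the box C/D particle overlapped between groups: NOP58 over NOP56 differed by -0.03 and FBL over NOP56 by -0.01, both with an exact permutation p of 1.0, and the DCC-2036 libraries of FBL over NOP56 ranged from -0.33 to 0.26.

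**Figure D3:**
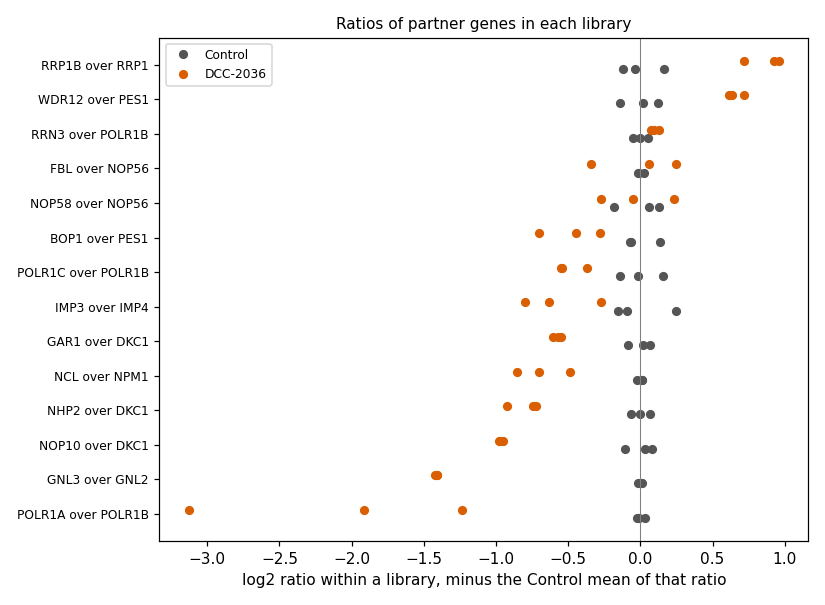
Log2 ratio of partner genes in each library, less the Control mean of that ratio (horizontal axis; grey points are Control libraries, orange points DCC-2036 libraries, 3 each). In 12 of the 14 ratios the colours do not overlap; POLR1A over POLR1B shifted most, by -2.09, and the ratios to NOP56 overlap.

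Several members have small nucleolar RNA genes between their start and end positions, a feature that the choice by name did not use. By GENCODE 29 positions, 9 of the 50 (18%) host at least 1 snoRNA gene on their strand, against 1.59% of 12448 tested genes with a position. TAF1D holds 8, NOP56 and GNL3 hold 5 each, NOP58 holds 4, NCL and WDR43 hold 3 each, and DKC1, TSR1 and PPAN hold 2 each. Of these 9, 3 were called higher (TAF1D, NOP58 and DKC1) and 3 lower (GNL3, TSR1 and PPAN), and their median log2 change was 0.66. Over all 198 tested host genes, 47 were called higher (23.7%) and 28 lower (14.1%), with a median of 0.14. Of 12448 tested genes with a position, 19.2% were called higher and 22.8% lower, with a median of -0.09. The 41 members that host none had 9 called higher and 8 lower, with a median of -0.06. Whether hosts differ from the other members was not tested.

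GC content of the transcript moved with the change. Among the members called higher the median GC content was 42.3% (11 genes with a value, 37.3% to 57.9%), and among those called lower 56.3% (10 genes, 43.5% to 60.9%). Over all genes tested the medians were 47.5% for those called higher and 52.7% for those called lower. In quintiles of all genes by rising GC content the median log2 change was 0.09, 0.05, -0.06, -0.29 and -0.27. With a trend of length and GC content removed, an alternative chosen after seeing the data, 13 of 48 members were called higher (27.1%, against 25.5% of all genes in that fit) and 10 lower (20.8%, against 20.1%). NPM1 (0.65), RRP12 (0.64) and NOP10 (-0.49) then passed the limit and TSR1 (-0.26) did not. What part GC content plays in each change was not tested.

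**Figure D4:**
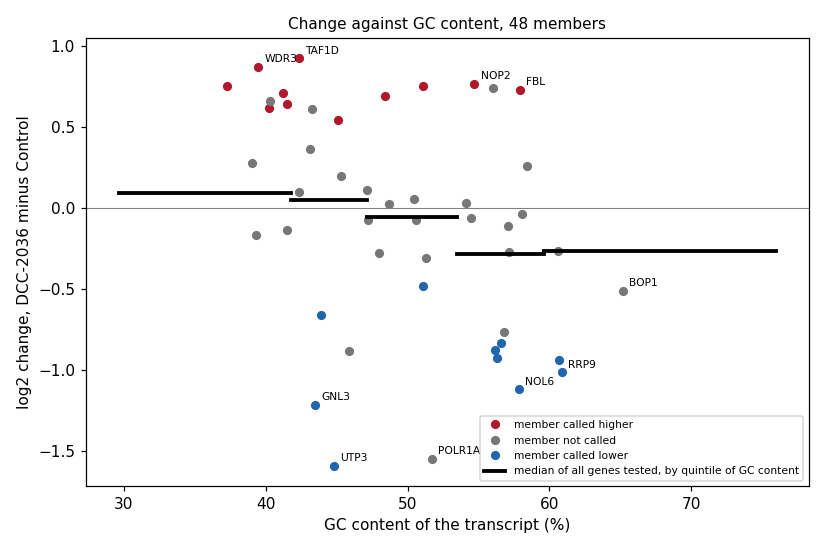
Log2 change with DCC-2036 (vertical axis) against GC content of the transcript in percent (horizontal axis) for 48 members, with the median of all genes tested in each quintile of GC content as black lines. The lines run from 0.09 in the lowest quintile to -0.27 in the highest, and members called higher have a median GC content of 42.3% and members called lower of 56.3%.

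Genes of the same pathway outside the 50 were called at about the rate of all genes. Of 109 other ribosome biogenesis genes tested, 20 were called higher (18.3%, against 19.2%) and 26 lower (23.9%, against 22.7%), with a median of -0.04. The lowest was EMG1, a methyltransferase of small subunit RNA, at 1790, 2101 and 2099 in Control and 305, 285 and 233 with DCC-2036 (-2.87, SE 0.14, adjusted p = 0.00019). RRP7A, a processome protein, followed at 1962, 2036 and 2158 against 553, 424 and 414 (-2.15, SE 0.14, adjusted p = 0.00022). Neither gene had overlapping groups. Highest were RSL24D1, a large subunit assembly factor, at 1706, 1969 and 1657 against 4276, 5801 and 8676 (1.76, SE 0.26, adjusted p = 0.0018), and NMD3, the large subunit export adaptor, at 1574, 1648 and 1517 against 3339, 4383 and 6440 (1.53, SE 0.24, adjusted p = 0.0022).

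By role, the 48 other large subunit factors had 12 called higher (25.0%) and 10 lower (20.8%), and the 38 other small subunit factors 8 (21.1%) and 8 (21.1%), against 19.2% and 22.7% of all genes. Without any 1 Control library or DCC-2036 replicate 2 the higher counts were 5 to 7 and 2 to 3, and the lower count of the large subunit factors was 6 without Control replicate 2 or Control replicate 3. The RNA exosome trims ribosomal RNA precursors. Of 14 genes for it and its cofactors SKIV2L2, MPHOSPH6 and C1D, limma called 0 higher, against 19.2% of all genes. Called lower were 5 (35.7%, against 22.7% of all genes), MPHOSPH6 among them, and the median of the 14 was -0.39. At an unadjusted limma p under 0.05, 2 were higher and 9 lower. The lower count was 3 without Control replicate 2 or Control replicate 3. EXOSC3 at -1.95 and EXOSC2 at -1.87, both subunits of the exosome cap, were lowest, named after their values were seen. Without Control replicate 1, 2 or 3 the other pathway genes called higher numbered 8 each time and without DCC-2036 replicate 2 they were 9. Those called lower were 17 without Control replicate 2 or Control replicate 3. Cytosolic ribosomal protein genes, the products that these factors assemble, had mostly small changes above 0: 76 of 82 tested were above 0 with a median of 0.39, 8 were called higher (9.8%, against 19.2% of all genes) and 1 lower. Groups did not overlap upward in 57.3% of them, against 32.9% of all genes, and downward in 3.7%, against 38.1%. By limma 0 of the 82 were called without any 1 of Control replicates 1, 2 and 3 or without DCC-2036 replicate 2 (24 to 37 higher at an unadjusted p under 0.05), while 33 were called higher without DCC-2036 replicate 1 and 29 with a mean-variance trend in limma. With libraries scaled to equal totals, 67 were above 0, the median was 0.19, and 4 were called higher and 3 lower, and with no filter on low values limma called 1 higher. Upper quartile scaling gave 15 called higher, and removal of the length and GC trend gave 21. Over all genes those fits called 23.2% and 25.5% higher.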

How the data were processed

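RNA of LoVo cells was sequenced in 6 libraries, 3 Control and 3 DCC-2036, grouped by their titles. The labels name Trizol extraction and a Nextera XT library, and the aligner, gene model and genome build are not given in the sources used here. The authors deposited 1 signal value per RefSeq transcript and library (45006 transcripts), adjusted by a step that is not stated. The libraries were not equal in total signal. Their totals were 38997229, 39956227 and 40587145 in Control and 43279603, 45957597 and 48023306 with DCC-2036, without overlap. The values are not whole numbers and reads could not be recovered, so depth is unknown and no counting intervals are given. Columns of the authors' own comparison (log2 fold change, p-value, q-value) are in the deposited table too and were not used, and 0 further sample columns are present.

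The transcript with the highest mean was kept per symbol. Genes with at least 10 in at least 3 libraries (12725) were fitted with limma 3.58.1 in R 4.3.3 on log2(value + 1), without covariates, with Benjamini-Hochberg adjustment over all of them and a limit of 0.01. The paper states no test for these libraries. Ratios of partner genes were compared by exact permutation with scipy 1.17.1 (Python 3.11.15, pandas 2.3.3, numpy 2.4.6), and plots were made with matplotlib 3.10.9. Length and GC content (12293 genes, 96.61%) and gene positions came from GENCODE 29, matched by accession or symbol, and the 250 bases before each gene's start from RefSeq. Whether reads were counted by strand is not stated, and several members overlap genes on the opposite strand, while LTV1, NOP2, RRS1 and PPAN overlap others on their own. The code was tested on simulated data.

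The members and the lists of other genes were chosen with earlier results of these data known. Every member is accounted for by role. Values per library are given for the highest and lowest of each role, the 5 highest and 5 lowest overall and the members of the described ratios, and of the other pathway genes for the 2 highest and 2 lowest called. Any other gene was named after its values were seen. Alternatives changed the scaling, pseudocount (0.1), filter, limit, variance model, transcript choice, replicate block and libraries.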

Additional observations from a re-analysis of the deposited data

How the results depend on the processing

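Direction was kept by all 23 called members under every alternative run, and 17 kept the call under all 3 other scalings. Members called higher (12) numbered 4 with the replicate block, 0 with a log2 change of at least 1 also required in limma, and 2 to 15 with 1 library left out. Members called lower (11) numbered 6, 5 and 6 to 15 in turn. Other pathway genes called higher (20) numbered 13 with equal totals, 13 with no filter, 12 with the replicate block, 36 at a limit of 0.05, 7 with the log2 limit, and 8 to 26 with 1 library left out, and those called lower (26) numbered 17 to 28. Across genes, Control and DCC-2036 libraries of one number had deviations with correlations of 0.081, -0.035 and -0.0033. Of 6 libraries, 2 correlated best with their own number. No pairing by number was seen, but so few libraries cannot exclude it. With the block 1202 genes were called higher and 1909 lower, against 2442 and 2887 without it.

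Equal totals moved the median of all genes from -0.09 to -0.29 (1669 called higher, 3442 lower), median of ratios moved it to -0.01 and upper quartile to 0.02. The median of the members was -0.25 with equal totals, and 0.11 with length and GC trend removed, where that of all genes was 0.05 and 3131 genes were called higher and 2465 lower. It was -0.08 to 0.00 with 1 library left out.

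Signs changed in 11 members, none of them called, and in 2 ratios. With equal totals EBNA1BP2 was -0.175, GAR1 -0.086, GNL2 -0.001, NOP16 -0.171, POLR1C -0.143 and UTP20 -0.100. With median of ratios NCL was 0.006, NOB1 0.021, PES1 0.045 and RRP1B 0.006. With upper quartile NCL was 0.036, NHP2 0.001, NOB1 0.051, PES1 0.075 and RRP1B 0.036. With length and GC trend removed NCL was 0.057, NOB1 0.114, PES1 0.250 and RRP1B 0.137. With 1 library left out the ranges were EBNA1BP2 -0.065 to 0.107, FBL over NOP56 -0.140 to 0.154, NOB1 -0.130 to 0.021, NOP16 -0.066 to 0.098, NOP58 over NOP56 -0.161 to 0.094, PES1 -0.100 to 0.016, POLR1C -0.009 to 0.123 and UTP20 -0.009 to 0.245. For each of these the cause was not tested. Unknown depth limits what can be said of single values, and 3 libraries a group limit single ratios.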
